A study of Mus musculus with 18 samples.

Results

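Solute carriers are the membrane proteins that move amino acids, sugars, vitamins, nucleotides, metal ions and salts across the plasma membrane and between organelles. Their genes carry the prefix Slc and a family number that goes with the solute or the membrane: Slc25 proteins sit mainly in the inner mitochondrial membrane, Slc35 proteins serve the Golgi and endoplasmic reticulum, Slc39 proteins bring zinc into the cytosol and Slc30 proteins take it out. Resting B cells that are stimulated through a Toll-like receptor enlarge and enter the cell cycle, and activated lymphocytes are known to raise their uptake of amino acids and glucose and to shift their mitochondrial metabolism.

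The autosomal solute carrier genes described here were followed in mouse splenic B cells before and after stimulation. RNA was taken from CD23+ B cells (CD23 is a receptor of mature follicular B cells) of female F1 129S1/Cast mice that were Xist+/-, a genotype shared by all the samples, in which the Cast X chromosome is always the inactive one according to the labels. The 3 naive samples had no treatment, and the 3 CpG samples had been kept in vitro with CpG, an oligonucleotide ligand of the receptor TLR9, at 1 µM for 24 h. The labels number the samples of each group 1 to 3 but name no animals, so the p-values measure the spread between these samples. No cultured group without CpG is among them, so time in culture and CpG cannot be told apart. The ages of the mice are not given in the sources used here, and the other 12 of the 18 samples in the series, from another cross, were not analysed here.

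The genes were chosen by their name and by their read counts: an autosomal gene whose name starts with Slc, with at least 10 reads over the 129 and Cast tables in each of the 3 samples of the naive or of the CpG group. Of 28374 genes matched between the tables, 351 were autosomal Slc genes, 185 of these were below the minimum, 90 of them without any read, and 9 of the 10 genes set aside in the definition met it (the amino acid and glucose carriers Slc7a5, Slc3a2, Slc1a5, Slc1a4, Slc7a1, Slc38a2, Slc43a1 and Slc2a1, with Slc15a4 and Slc40a1). That left 157 genes on 19 chromosomes. The genes set aside include several of the best-known carriers of activated lymphocytes, so no count below speaks for the whole gene class: of the 9 that were tested, 5 rose and 2 fell. Slc1a5, the glutamine carrier ASCT2, was at 162, 290 and 299 CPM in the naive and 264, 373 and 404 CPM in the CpG samples, higher in each pair of the same number, and was called with the replicate number as a block alone (edgeR adjusted p = 0.00131, against 0.13 without). Just inside the minimum were Slc25a35, Slc33a1 and Slc46a1, each with a lowest count of 11 reads in the group that admitted it, and just outside were Slc17a2, Slc35f5 and Slc36a3os with 9 reads.

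The tables held 4452339 to 6249989 gene reads per sample over both strains. All autosomal Slc genes, those set aside included, took 1.06, 1.01 and 0.990% of the matched reads in the naive samples. In the CpG samples they took 0.988, 0.973 and 0.974%, slightly less than in any naive sample. Levels are given as CPM (reads scaled to the size of the library) over both alleles, scaled by edgeR's TMM factors. Only reads that can be given to a strain are in the tables, so the level of a gene also depends on how many differences its transcript has between the strains, and levels are compared between samples and not between genes. A gene is called changed at an adjusted p under 0.05 in edgeR's quasi-likelihood test over all tested genes.

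The markers of the labelled cell type were present and were lower after CpG: the 7 B cell markers summed to 8080 to 9971 CPM in naive and 2830 to 3528 CPM in CpG samples, and all 7 fell, including Fcer2a, which encodes CD23. The naive samples also held RNA of other cells. The 14 red pulp macrophage markers summed to 7220, 3252 and 4453 CPM in naive replicates 1, 2 and 3 and to 27.7 to 36.3 CPM after CpG, and 13 of 13 tested fell. The 4 matched erythroid markers summed to 41.8, 37.1 and 76.0 CPM and then to 0.598 to 1.37 CPM. T cell markers summed to 50 to 64.7 CPM before and 6.57 to 8.20 CPM after CpG, with 3 of 3 tested falling, and NK cell markers to 12.9 to 18.2 and 2.67 to 5.78 CPM, with 2 of 2 falling. Cd4 was the largest part of the naive T cell sum, at 49.7, 25.1 and 36.5 CPM before and 0, 0.199 and 0 CPM after CpG. The other T cell markers tested, Cd3d and Lck, fell by 4.51 and 0.81 on the log2 scale. The 5 stromal and endothelial markers were at 319 to 344 CPM and 92.6 to 128 CPM, neutrophil markers at 5.49 to 22.2 and 0.410 to 0.798 CPM, and platelet markers at 2.3 to 4.94 and 0.410 to 2.39 CPM. Pecam1 made up most of the stromal and endothelial sum, at 308, 334 and 318 CPM in the naive and 112, 84.6 and 119 CPM in the CpG samples. Of the others, Pdgfrb fell by 1.42 on the log2 scale, Cdh5 was not called (-0.16, edgeR adjusted p = 0.689), and Col1a1 and Col3a1 had few reads or none. Plasma cell markers, at 239 to 405 and 291 to 331 CPM, and dendritic cell markers, at 49.9 to 64.5 and 61.3 to 86.4 CPM, overlapped between the groups in their sums, with members that moved in opposite directions. Of the plasma cell markers, Jchain fell by 1.81 on the log2 scale while Prdm1 and Xbp1 rose by 2.76 and 1.04. Of the dendritic cell markers, Siglech had 31, 21 and 16 reads before and 1, 0 and 0 after CpG, Clec9a had 9, 14 and 9 reads and then none, and Bst2, which made up most of the sum, rose by 0.89 on the log2 scale. In bulk RNA fewer cells of a type and less RNA per cell cannot be told apart, and the part of these lists in any result below was not tested unless a value is given beside it.

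The allele shares also differed between samples of different numbers. At 13 of the 125 members that reached 10 reads in all 6 samples, the Cast share of the reads set the samples of 1 number apart from the others by at least 15 percentage points, in the same way in the naive and in the CpG group. All autosomal genes with that many reads showed it at 820 of 8562, or 9.58%, against 10.4% of these members. The limit of 15 points was chosen after the shares were seen. The rule asked for the same number in both groups, and no rate expected by chance was worked out. These counts alone therefore do not test whether same-numbered samples are paired. Over the tested genes, deviations from the group means correlated at 0.182, 0.155 and 0.206 between same-numbered samples and negatively in every other pairing. Deviations cancel out within a group, so the negative values go with the positive ones and are no separate evidence. Fits with the number as a block are given where they changed the call of a gene described. The members concerned are described with the alleles.

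In the 125 members that reached the minimum in both groups, CpG was followed by changes of both signs in about equal number. Of these genes 78 were called (62.4%), 36 higher (28.8%) and 42 lower (33.6%), and 47 were not called. Among the 8793 tested genes that had 10 or more reads in each of the 6 samples, 67.8% were called, 35.8% higher and 32% lower, so the members' shares lie near the background. The groups did not overlap in CPM for 90 of the 125 members (72%), against 73.3% of those 8793 genes. The median log2 fold change was -0.05 in the members and 0.04 in all 8793 genes. A change of at least 2-fold was called in 23 members that rose and 23 that fell. With the replicate number as a block, 82 of the 125 were called, beside 6118 of the 8793 genes.

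Counting every member tested gives 108 of 156 called, 46 higher and 62 lower, beside 68.7% of all 10343 tested genes, 34.2% higher and 34.4% lower, and 112 members with the block, beside 70.3%. These counts include 20 genes that met the minimum in naive samples alone and 12 that met it in CpG samples alone. Such genes had to differ, so they are given as a description. Slc33a1, which carries acetyl-CoA into the endoplasmic reticulum, was the member too low to be tested.

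**Figure D1:**
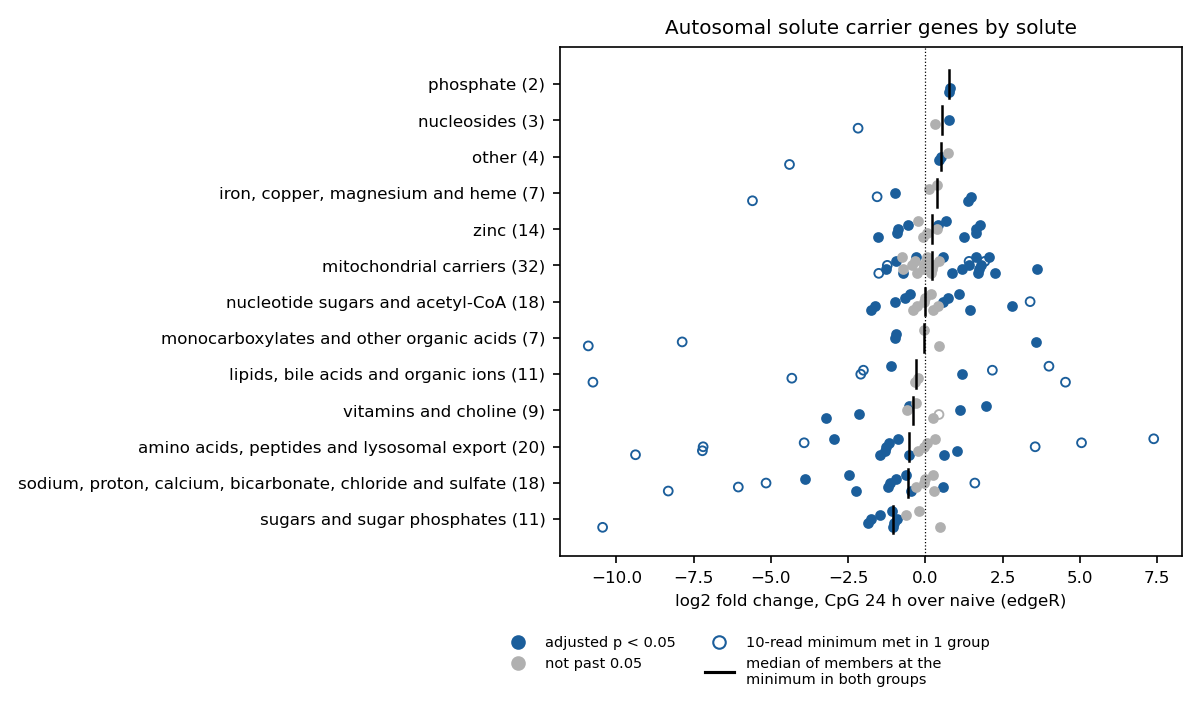
Log2 fold change of each of the 156 tested autosomal solute carrier genes (x axis), CpG for 24 h over naive, by the solute or membrane of the family (y axis, number of genes in brackets). Filled points met the 10-read minimum in both groups, open points in 1 group, blue points passed an adjusted p of 0.05, and the bar is the median of the filled points. The sugar carriers lie mostly below 0 with a median of -1.04, and the mitochondrial carriers have a median of 0.20.

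Mitochondrial carriers were the largest group. Of 28 members of the Slc25 family with the minimum in both groups, 11 rose, 4 fell and 13 were not called, and the median log2 fold change was 0.20. These counts stand beside the 35.8% higher and 32% lower of the 8793 tested genes with 10 reads in every sample, a background that holds for each group described below, and no group was tested as a whole. This list follows the family number, and Slc25a17, a coenzyme A carrier of the peroxisome, and Slc25a46, an outer membrane protein of mitochondrial dynamics, are in it although they are not inner membrane carriers.

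Slc25a13 on chromosome 6 encodes citrin, the aspartate-glutamate exchanger of the malate-aspartate shuttle, which moves reducing equivalents into mitochondria. It was at 11, 8.99 and 7.41 CPM in the naive samples and 124, 91 and 119 CPM in the CpG samples, log2 fold change 3.6 (SE 0.19, adjusted p = 3.85e-07 by edgeR). All 3 CpG samples lay far above the highest naive sample. Its paralog Slc25a12, which does the same exchange, rose from 46.5, 44.7 and 38.9 CPM to 106, 103 and 90 CPM, log2 fold change 1.2 (SE 0.12, adjusted p = 1.83e-05 by edgeR). Slc25a11, the oxoglutarate-malate partner of that shuttle, was at 39.4, 56.2 and 42.5 CPM in the naive samples and 57.2, 53.7 and 51.7 CPM in the CpG samples, and its groups overlapped (log2 fold change 0.23, edgeR adjusted p = 0.2). Whether Slc25a11 differed from Slc25a13 in its response was not tested.

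Among further Slc25 members that rose, Slc25a32, which takes folate into mitochondria, was at 13.4, 21.2 and 20.3 CPM in the naive samples and 92.5, 80 and 86.9 CPM in the CpG samples, log2 fold change 2.24 (SE 0.18, adjusted p = 3.70e-06 by edgeR). Slc25a39, needed for glutathione import into mitochondria, was at 72.1, 83.9 and 67.8 CPM in the naive samples and 239, 233 and 254 CPM in the CpG samples, log2 fold change 1.7 (SE 0.11, adjusted p = 1.17e-06 by edgeR). In both genes the groups lay well apart.

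Of the metabolite carriers, Slc25a15, the ornithine carrier of the urea cycle and of polyamine precursors, rose from 23.2, 16.4 and 19.5 CPM to 81.7, 92.3 and 72 CPM, log2 fold change 2.06 (SE 0.16, adjusted p = 4.10e-06 by edgeR). Slc25a1, which exports citrate for fatty acid synthesis, rose from 27.7, 20.5 and 21.4 CPM to 85.4, 72.4 and 84.7 CPM (1.8 on the log2 scale, adjusted p = 6.03e-06, edgeR), and Slc25a10, the dicarboxylate carrier, rose from 22, 18.9 and 14.3 CPM to 46, 57.8 and 41.8 CPM (1.39, adjusted p = 1.74e-04). The peroxisomal Slc25a17 rose from 14.6, 9.91 and 12.9 CPM to 52.5, 22.7 and 49.2 CPM, log2 fold change 1.74 (SE 0.33, adjusted p = 0.00135 by edgeR), and CpG replicate 2 was lower than both other CpG samples. Slc25a16 and Slc25a46 rose by 0.87 and 0.56 on the log2 scale. Slc25a33, a pyrimidine nucleotide carrier that met the minimum in CpG samples alone, went from 4.06, 3.92 and 2.47 CPM to 12.7, 10.6 and 16.8 CPM.

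The mitochondrial members that fell were Slc25a37, Slc25a26, Slc25a45 and Slc25a3. Slc25a37 encodes mitoferrin-1, which brings iron into mitochondria for heme and iron-sulfur clusters. It was at 316, 294 and 335 CPM in the naive samples and 129.7, 120.5 and 139 CPM in the CpG samples, log2 fold change -1.28 (SE 0.1, adjusted p = 4.17e-06 by edgeR). Its paralog Slc25a28, mitoferrin-2, was at 27.5, 32.5 and 35.7 CPM in the naive samples and 35.3, 23.9 and 33.2 CPM in the CpG samples, with overlapping groups (-0.05, edgeR adjusted p = 0.834). Slc25a26, the S-adenosylmethionine carrier, fell from 17.7, 21.4 and 22.8 CPM to 11.1, 9.97 and 11.1 CPM (-0.94, adjusted p = 0.00248), and Slc25a45 fell from 80.2, 68.2 and 64.2 CPM to 40.8, 51.5 and 36.9 CPM (-0.72, adjusted p = 0.00235). Slc25a3, the phosphate carrier that feeds ATP synthase, fell from 408, 378 and 434 CPM to 339, 305 and 334 CPM, log2 fold change -0.32 (SE 0.1, adjusted p = 0.0175 by edgeR). That small fall was lost in the 129 tables alone (edgeR adjusted p = 0.130) and without naive replicate 3 (0.0647).

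Among the 13 mitochondrial members not called were Slc25a20, the acylcarnitine carrier, at 27, 17.1 and 26.3 CPM in the naive samples and 30, 25.9 and 26.4 CPM in the CpG samples, and Slc25a22, a glutamate carrier, at 8.12, 8.99 and 9.33 CPM in the naive samples and 9.23, 13 and 13.9 CPM in the CpG samples. Slc25a38, a glycine carrier needed for heme synthesis, was within a narrow band in all 6 samples, 58.2, 62.9 and 69.1 CPM in the naive samples and 66.3, 58.4 and 69.1 CPM in the CpG samples. Slc25a44, which carries branched-chain amino acids, was not called either, at 89.8, 80.2 and 77.1 CPM in the naive samples and 86.6, 86.4 and 84.5 CPM in the CpG samples. Slc25a4, the ATP/ADP exchanger, is named in the 129 table alone, and its CPM there went from 15.9, 19.1 and 11.5 CPM to 59.3, 46.1 and 61.8 CPM, log2 fold change 1.84 (SE 0.24, adjusted p = 5.02e-04 by edgeR), from the fit of that table.

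Monocarboxylate carriers had 5 members with the minimum in both groups, 1 higher, 2 lower and 2 not called. The riser, Slc16a1 (MGP_129S1SvImJ_G0027707, chromosome 3), encodes MCT1, which moves lactate and pyruvate together with a proton. It was at 22, 21.7 and 25 CPM in the naive samples and 289, 260.1 and 268 CPM in the CpG samples, log2 fold change 3.57 (SE 0.11, adjusted p = 9.02e-08 by edgeR), and its mean went from 22.9 ± 1.83 to 272 ± 14.9 CPM (SD, n = 3 each). The 3 samples of each group lay close together and far from the other group. Slc16a7, which encodes the related MCT2, fell from 23.9, 28.8 and 24.7 CPM to 16.4, 10.4 and 12.5 CPM, log2 fold change -0.98 (SE 0.22, adjusted p = 0.00287 by edgeR). Slc16a10, an aromatic amino acid carrier of the same family, fell from 34.6, 29.5 and 29.6 CPM to 18.1, 15 and 15.8 CPM (-0.94, edgeR adjusted p = 8.10e-04). Slc16a6, with 127, 126 and 136 CPM in the naive samples and 138, 127 and 117 CPM in the CpG samples, and Slc16a13 were not called. Bsg and Emb, which encode the chaperones that carry MCT1 and its relatives to the plasma membrane, rose from 117, 127 and 137 CPM to 287, 332 and 303 CPM and from 20.3, 9.68 and 25 CPM to 60.7, 76.6 and 60.5 CPM.

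The promoters of the risers were looked at because several members rose together. RefSeq promoters of assembly GRCm38.p6 (250 bases before to 50 after each start site) were matched by symbol for 118 of the 157 members. The E-box CACGTG, the letters bound by MYC and related factors, was searched in them (it reads the same on both strands), with the NRF1 core CGCATGCG, which also reads the same on both strands, as a comparison. CACGTG was in 7.15% of all 32851 promoters, at 8.09% of all 27025 genes and at 23 of the 118 members (19.5%). Of the genes with the minimum in both groups it was at 10 of 28 that rose (35.7%), 5 of 31 that fell (16.1%) and 3 of 36 not called (8.33%). CGCATGCG was at 2.07% of all genes and at 0 of the 28, 0 of the 31 and 0 of the 36, too rare to compare in sets of this size. All RefSeq genes are a wider set than the tested genes, and the share among all genes that rose is not given here. Whether the risers differ from other genes that rose was not tested. The 10 risers with CACGTG were Slc16a1, Slc20a1, Slc25a1, Slc25a13, Slc25a15, Slc29a1, Slc30a5, Slc31a2, Slc39a8 and Slc39a11. A match describes the letters in the window, and binding was not measured here. The 250 bases before the start site are printed, 5′ to 3′ on the gene's strand with CACGTG in capitals, for the 3 risers with the largest fold changes that hold it. They lie at chr3:104638414-104638663 (plus strand, match beginning 200 bases before the start site), chr6:6217174-6217423 (minus strand, 125 bases before) and chr8:22398278-22398527 (minus strand, 77 bases before), in GRCm38.p6.
Slc16a1: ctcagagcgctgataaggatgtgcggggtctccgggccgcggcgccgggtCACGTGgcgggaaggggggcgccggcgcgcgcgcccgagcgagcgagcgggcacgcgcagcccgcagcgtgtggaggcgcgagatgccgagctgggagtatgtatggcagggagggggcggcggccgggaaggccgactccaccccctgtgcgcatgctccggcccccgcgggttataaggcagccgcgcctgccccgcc
Slc25a13: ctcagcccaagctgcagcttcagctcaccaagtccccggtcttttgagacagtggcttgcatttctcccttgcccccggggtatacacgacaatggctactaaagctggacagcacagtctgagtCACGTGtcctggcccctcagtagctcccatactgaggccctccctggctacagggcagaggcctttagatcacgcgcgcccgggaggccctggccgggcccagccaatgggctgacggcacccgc
Slc25a15: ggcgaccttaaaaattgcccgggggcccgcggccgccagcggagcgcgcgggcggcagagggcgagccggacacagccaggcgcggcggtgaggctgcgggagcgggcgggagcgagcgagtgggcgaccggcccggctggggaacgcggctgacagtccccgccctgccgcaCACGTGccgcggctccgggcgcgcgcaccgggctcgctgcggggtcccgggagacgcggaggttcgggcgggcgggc

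Sugar carriers were lower or not called after CpG, and none of the 10 with the minimum in both groups rose, although Slc5a3 was called higher with the replicate block. Of these, 7 fell, beside 32% of the background genes, and the median log2 fold change was -1.04. Slc50a1, a sugar carrier of the Golgi and plasma membrane, was at 86.9, 103 and 91.6 CPM in the naive samples and 29.1, 26.9 and 27.3 CPM in the CpG samples, log2 fold change -1.75 (SE 0.12, adjusted p = 1.55e-06 by edgeR). The 3 CpG samples lay close together, far below the naive samples. Slc37a2, a sugar phosphate carrier of the endoplasmic reticulum, fell from 256, 139.9 and 248 CPM to 66.3, 53.7 and 57.6 CPM, log2 fold change -1.86 (SE 0.23, adjusted p = 1.21e-04 by edgeR), and naive replicate 2, lowest for the macrophage markers, was also lowest here. Slc37a4, which carries glucose 6-phosphate into the endoplasmic reticulum, fell from 23.4, 26.5 and 32.6 CPM to 10.5, 20.5 and 8.39 CPM (-1.06, edgeR adjusted p = 0.0151), and Slc37a1 fell by 1.09 on the log2 scale.

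All 3 glucose carrier family members fell, with Slc2a1 set aside by the definition. Slc2a3, which encodes the high-affinity glucose carrier GLUT3, was at 45.1, 38.7 and 51 CPM in the naive samples and 17.2, 29.3 and 23.8 CPM in the CpG samples, log2 fold change -0.93 (SE 0.21, adjusted p = 0.00271 by edgeR). Slc2a9, which carries urate, was at 51.3, 67.3 and 49.1 CPM in the naive samples and 17.2, 28.3 and 14.4 CPM in the CpG samples (-1.48, adjusted p = 5.86e-04, edgeR), and Slc2a6 at 11.2, 21.4 and 14 CPM in the naive samples and 8.62, 4.99 and 9.37 CPM in the CpG samples (-1.02, adjusted p = 0.0203). Slc5a3, the sodium-coupled myo-inositol carrier, was at 32.9, 22.8 and 34.3 CPM in the naive samples and 47.4, 35.9 and 40.8 CPM in the CpG samples, with a log2 fold change of 0.47 that missed the threshold (edgeR adjusted p = 0.0503) and passed it with the replicate block (0.0168). It shares its strand and position with Mrps6, so reads may be split between them.

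Amino acid carriers, without those that the definition set aside, were called in both directions: of 13 with the minimum in both groups, 7 fell, 2 rose and 4 were not called, with a median log2 fold change of -0.55, beside 32% lower and 35.8% higher in the background. Slc38a9, the lysosomal arginine sensor that acts on mTORC1, was at 175, 201 and 184 CPM in the naive samples and 56.6, 84.2 and 62.7 CPM in the CpG samples, log2 fold change -1.46 (SE 0.15, adjusted p = 2.12e-05 by edgeR). Slc36a1, a lysosomal proton-coupled exporter of small amino acids, fell from 89, 72.8 and 74.9 CPM to 35.7, 34.1 and 27.1 CPM (-1.29, edgeR adjusted p = 4.05e-05). Slc38a7, a lysosomal glutamine exporter, fell from 65.2, 72.1 and 59.5 CPM to 32.2, 41.1 and 34 CPM (-0.88, adjusted p = 3.96e-04), and Slc17a5, which exports sialic acid from lysosomes, fell from 26.3, 34.3 and 32.1 CPM to 13.1, 13 and 14.4 CPM (-1.19, adjusted p = 2.73e-04). In each of these the groups did not overlap. Of further lysosomal carriers, Slc36a4 was not called, at 100.02, 108 and 74.6 CPM in the naive samples and 115, 79.4 and 97 CPM in the CpG samples, nor was Slc15a3, a carrier of peptides and histidine, at 38.9, 25.8 and 38.9 CPM in the naive samples and 30.4, 33.3 and 36.7 CPM in the CpG samples (-0.04, edgeR adjusted p = 0.847).

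At the plasma membrane, Slc43a2, a facilitated carrier of large neutral amino acids, fell furthest of the 13, from 199.6, 164 and 126 CPM to 21.1, 26.3 and 15.6 CPM, log2 fold change -2.96 (SE 0.23, adjusted p = 6.03e-06 by edgeR). Slc38a1, a sodium-coupled glutamine carrier, was at 408, 459 and 394 CPM in the naive samples and 682, 619 and 602 CPM in the CpG samples, log2 fold change 0.59 (SE 0.11, adjusted p = 8.26e-04 by edgeR), and missed the threshold on the 129 reads alone (adjusted p = 0.156). Slc7a6, which exchanges cationic for neutral amino acids, rose from 12.2, 8.06 and 13.2 CPM to 22.6, 20.1 and 24.8 CPM, log2 fold change 1.02 (SE 0.23, adjusted p = 0.00336 by edgeR). Slc38a10 fell by 0.55 and Slc38a6 fell by 1.31 on the log2 scale, so of the 5 Slc38 members 1 rose and 4 fell. Slc6a6, the taurine carrier, was at 73.5, 66.1 and 68 CPM in the naive samples and 59.5, 62.8 and 54.3 CPM in the CpG samples and was not called.

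Slc43a3 met the minimum in CpG samples alone. It belongs to an amino acid family by its number but carries purine nucleobases. It had 3, 5 and 0 reads before and 80, 130 and 129 reads after CpG. Its log2 fold change was 5.05 (SE 0.51), a description only, since it met the minimum through the CpG samples. The equilibrative nucleoside carrier Slc29a1, which imports nucleosides for salvage, rose from 53.5, 45.9 and 47.7 CPM to 90.9, 73.4 and 86.1 CPM, log2 fold change 0.77 (SE 0.12, adjusted p = 4.10e-04 by edgeR); on the Cast reads alone it was not called (adjusted p = 0.1001). Slc29a2, a relative, was at 4.3, 4.61 and 7.13 CPM in the naive samples and 7.59, 5.98 and 6.05 CPM in the CpG samples and was not called. Slc17a3 was listed at 0 reads in every naive sample and at 4.72, 2.59 and 6.44 CPM after CpG, at least 6.17-fold higher against a floor of 3 reads per library.

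**Figure D2:**
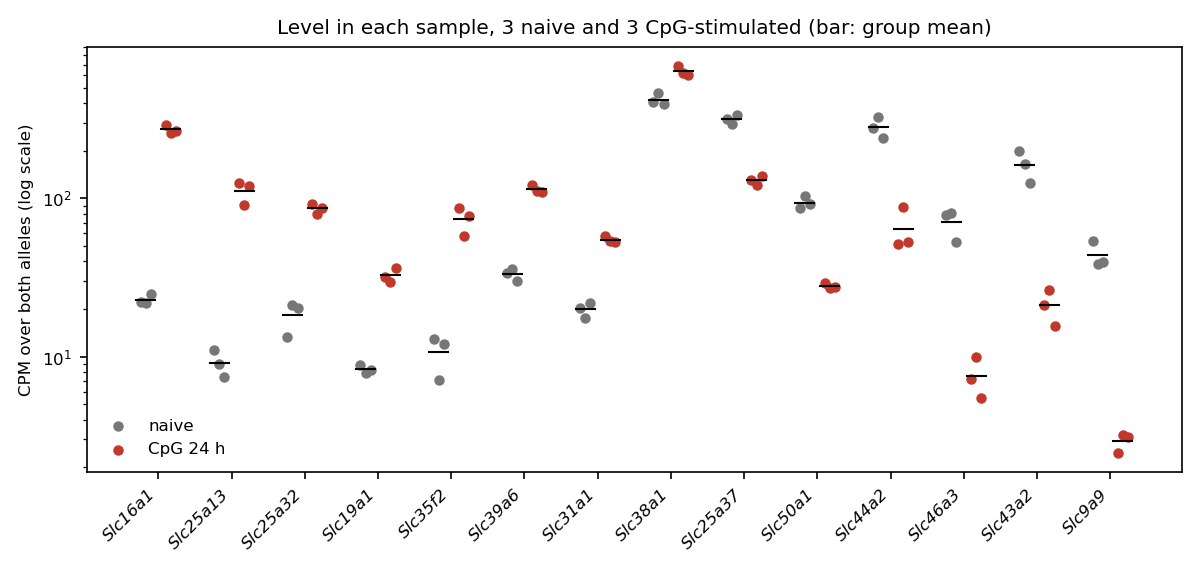
CPM over both alleles (log axis) of 14 solute carrier genes in the 3 naive (grey) and 3 CpG samples (red), with a bar at each group mean. Slc16a1 rises from 22, 21.7 and 25 CPM to 289, 260.1 and 268 CPM, while Slc9a9 falls from 53.7, 38.2 and 39.8 CPM to 2.46, 3.19 and 3.12 CPM. The 14 genes were taken from called members whose groups do not overlap, so their separation is not a result.

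Vitamin and choline carriers held 2 risers and 3 fallers among 8 members. Slc19a1, the reduced folate carrier, was at 8.83, 7.83 and 8.23 CPM in the naive samples and 32, 29.5 and 36.3 CPM in the CpG samples, log2 fold change 1.97 (SE 0.19, adjusted p = 1.24e-05 by edgeR). Slc19a2, the thiamine carrier, rose from 22, 22.6 and 28.8 CPM to 56, 41.1 and 62.9 CPM (1.13, edgeR adjusted p = 5.60e-04). Slc46a1, a proton-coupled folate carrier at the minimum in CpG samples alone, had 13, 8 and 10 reads before and 24, 11 and 17 after CpG and was not called. Slc44a2, a choline-like carrier, fell from 279.5, 328 and 241 CPM to 51.7, 87.8 and 53.3 CPM, log2 fold change -2.14 (SE 0.22, adjusted p = 4.06e-05 by edgeR). Slc46a3, a lysosomal protein, fell from 78.3, 80.2 and 53.2 CPM to 7.18, 9.97 and 5.47 CPM, log2 fold change -3.22 (SE 0.25, adjusted p = 3.36e-06 by edgeR). Slc23a2, the vitamin C carrier, fell from 126, 153 and 114 CPM to 91.7, 95.5 and 86.1 CPM (-0.52, adjusted p = 0.00443). Slc5a6, the sodium-coupled carrier of biotin and pantothenate, was at 17.9, 20 and 23.3 CPM in the naive samples and 26.3, 25.9 and 20.7 CPM in the CpG samples and was not called, and Slc52a2, a riboflavin carrier, was called with the replicate block alone (-0.59, adjusted p = 0.0494).

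Zinc carriers moved in both directions in both families. Of 8 Slc39 importers, Slc39a6, Slc39a8, Slc39a11 and Slc39a14 rose, Slc39a3 and Slc39a13 fell, and 2 were not called. Slc39a6, which encodes ZIP6, was at 33.7, 35.9 and 30.2 CPM in the naive samples and 121, 111 and 109.7 CPM in the CpG samples, log2 fold change 1.78 (SE 0.11, adjusted p = 1.16e-06 by edgeR). Slc39a11 rose from 14.8, 17.7 and 8.23 CPM to 52.7, 39.5 and 35.9 CPM (1.64, edgeR adjusted p = 4.86e-04) and Slc39a8, which also carries manganese, rose from 8.59, 5.99 and 7.41 CPM to 20.5, 29.3 and 18 CPM (1.62, adjusted p = 4.37e-04). Slc39a14, a carrier of zinc, iron and manganese, rose by 1.26 on the log2 scale. Slc39a3 fell from 37.7, 46.1 and 39.2 CPM to 20.7, 22.7 and 22.5 CPM and Slc39a13 fell from 26.3, 27.9 and 18.4 CPM to 12.9, 13.8 and 11.7 CPM.

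Of 6 Slc30 members, Slc30a5 and Slc30a6, which encode partners that load zinc into the secretory pathway, rose by 0.41 and 0.67 on the log2 scale. Slc30a1, the plasma membrane zinc exporter, fell from 8.83, 14.1 and 8.78 CPM to 2.87, 4.19 and 3.9 CPM (-1.53, edgeR adjusted p = 0.00229), and Slc30a9 fell from 154, 141 and 164 CPM to 101, 111 and 97.6 CPM (-0.57, adjusted p = 9.69e-04). Slc30a4 (0.39, adjusted p = 0.0563) and Slc30a7 (-0.24, adjusted p = 0.0523) missed the threshold, and the replicate block brought them past it (0.00847 and 0.0456). Mt1, which encodes the zinc-binding metallothionein, fell from 16.7, 8.76 and 12.1 CPM to 3.28, 3.99 and 2.15 CPM (-1.99, edgeR adjusted p = 8.41e-04).

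Copper carriers rose and a heme carrier fell. Slc31a1, the high-affinity copper importer CTR1, was at 20.3, 17.5 and 21.9 CPM in the naive samples and 57.5, 54.1 and 52.9 CPM in the CpG samples, log2 fold change 1.46 (SE 0.14, adjusted p = 1.44e-05 by edgeR), and its relative Slc31a2 rose from 5.25, 5.3 and 6.31 CPM to 18.7, 11 and 14.4 CPM (1.39, edgeR adjusted p = 0.00168). Slc48a1, which moves heme out of lysosomes, fell from 42.7, 45.6 and 33.2 CPM to 20.3, 18.9 and 22.3 CPM, log2 fold change -0.98 (SE 0.17, adjusted p = 5.88e-04 by edgeR). Slc11a2, which encodes the iron carrier DMT1, was at 39.9, 39.4 and 27.2 CPM in the naive samples and 54, 36.7 and 47.6 CPM in the CpG samples and was not called, like the magnesium carrier Slc41a1 at 179, 158 and 173 CPM in the naive samples and 176, 219.8 and 159 CPM in the CpG samples. Tfrc, the transferrin receptor, rose from 38.9, 48.6 and 54 CPM to 326, 194 and 316 CPM, and Fth1, the ferritin heavy chain, fell from 97.9, 90.5 and 109.99 CPM to 29.3, 27.3 and 30.5 CPM.

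Carriers of sodium, protons, calcium, bicarbonate, chloride and sulfate fell in 8 of 14 members, rose in 1 and were not called in 5, beside 32% lower and 35.8% higher in the background. Slc9a9, an endosomal sodium-proton exchanger, fell from 53.7, 38.2 and 39.8 CPM to 2.46, 3.19 and 3.12 CPM, log2 fold change -3.89 (SE 0.24, adjusted p = 8.24e-07 by edgeR). Slc26a11, an anion exchanger, was at 93.1, 91.5 and 83.9 CPM in the naive samples and 16.8, 13.6 and 18 CPM in the CpG samples, log2 fold change -2.47 (SE 0.14, adjusted p = 6.27e-07 by edgeR). Slc8b1, the sodium-calcium exchanger of mitochondria, fell from 83.8, 63.8 and 80.9 CPM to 18.3, 13.6 and 16.8 CPM, log2 fold change -2.23 (SE 0.17, adjusted p = 2.92e-06 by edgeR). The calcium uniporter of the same membrane, Mcu, rose by 0.56 on the log2 scale, and the calcium pump Atp2a2 by 1.87, while the pump Atp2a3 fell by 0.87.

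Of the 4 Slc12 carriers, which move chloride with cations, 1 rose, 2 fell and 1 was not called. Slc12a2, which encodes the chloride importer NKCC1, rose from 52.5, 44.2 and 40.3 CPM to 72.8, 68.6 and 62.1 CPM, log2 fold change 0.57 (SE 0.14, adjusted p = 0.00419 by edgeR). Slc12a7, the potassium-chloride exporter KCC4, fell from 36.3, 30 and 35.7 CPM to 18.1, 14.2 and 13.7 CPM (-1.15, edgeR adjusted p = 3.50e-04), Slc12a9 fell by 1.21 on the log2 scale, and the exporter Slc12a4 was at 11, 8.53 and 4.66 CPM in the naive samples and 10.1, 6.78 and 12.3 CPM in the CpG samples and was not called. The sulfate carrier Slc26a2 fell from 126, 168 and 125 CPM to 99.9, 85.4 and 83.7 CPM (-0.64, edgeR adjusted p = 0.00269). The bicarbonate carriers Slc4a2, Slc4a7 and Slc4a8 were not called. Both phosphate importers rose, Slc20a1 from 54.9, 68.7 and 58.4 CPM to 106, 101 and 101 CPM and Slc20a2 from 23.2, 25.6 and 25.8 CPM to 39.4, 52.9 and 37.3 CPM, with log2 fold changes of 0.76 and 0.8 (edgeR adjusted p = 2.69e-04 and 0.00234).

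Members of the Slc35 family, which holds carriers of nucleotide sugars for glycosylation, changed in both directions, 5 higher, 5 lower and 7 not called of 17. This list follows the family number, and not all of its members carry nucleotide sugars, Slc35b1 and Slc35b3 among them. Slc35b1, which exchanges ATP and ADP across the endoplasmic reticulum membrane, was at 35.3, 26.5 and 36.8 CPM in the naive samples and 99.5, 82.8 and 88 CPM in the CpG samples, log2 fold change 1.46 (SE 0.15, adjusted p = 2.02e-05 by edgeR). Slc35a3, the UDP-N-acetylglucosamine carrier of the Golgi, rose from 119.6, 119 and 105 CPM to 251, 223 and 263 CPM, log2 fold change 1.1 (SE 0.11, adjusted p = 1.42e-05 by edgeR), and Slc35a1, the CMP-sialic acid carrier, by 0.58 on the log2 scale. Slc35f2 rose furthest of the 17, from 12.9, 7.14 and 12.1 CPM to 86.2, 58 and 77.7 CPM, log2 fold change 2.79 (SE 0.24, adjusted p = 6.89e-06 by edgeR), and Slc35e1 rose by 0.72. Slc35f6 fell from 26.7, 27.2 and 25.5 CPM to 6.36, 9.77 and 7.03 CPM, log2 fold change -1.77 (SE 0.22, adjusted p = 7.31e-05 by edgeR). Slc35b3, which brings the sulfate donor PAPS into the Golgi, fell from 137, 138 and 137 CPM to 82.5, 92.7 and 87.3 CPM (-0.65, edgeR adjusted p = 2.26e-04). Slc35d2 fell from 32.7, 66.8 and 28.5 CPM to 12.5, 18.7 and 10.2 CPM, log2 fold change -1.63 (SE 0.37, adjusted p = 0.00443 by edgeR), and replicate 2 was the highest of its group before and after CpG. Slc35g1, at the minimum in CpG samples alone, went from 0.716, 1.15 and 4.39 CPM to 17.4, 17.6 and 28.7 CPM.

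The 3 remaining names with the minimum in both groups are no carriers. Slc9a3r1 encodes the scaffold NHERF1 and rose from 83.8, 86.6 and 64.7 CPM to 104, 115 and 116 CPM (0.51, edgeR adjusted p = 0.00601), Slc4a1ap rose from 104, 92.6 and 90.2 CPM to 125, 133 and 132 CPM (0.44, adjusted p = 0.00358), and Slc7a6os was not called. Among carriers of lipids and organic ions, 4 had the minimum in both groups. Slc22a15 was at 13.6, 16.1 and 3.02 CPM in the naive samples and 28.5, 26.9 and 20.7 CPM in the CpG samples, log2 fold change 1.2 (SE 0.46, adjusted p = 0.0467 by edgeR). That call was lost without naive replicate 1 (adjusted p = 0.0709), without CpG replicate 1 (0.117), 2 (0.118) or 3 (0.0571) and in the 129 tables alone (0.505). Slco5a1 was lower (-1.11, edgeR adjusted p = 0.0339), and Slc10a7 and Slc27a4 were not called. Slco3a1 and Slco4a1, organic anion carriers at the minimum in CpG samples alone, went from 0.239, 0 and 0.549 CPM to 8, 4.59 and 6.44 CPM and from 2.63, 0.922 and 2.19 CPM to 10.7, 7.58 and 7.61 CPM; for Slco3a1, with 3 naive reads in all, the ratio was 25.7 (95% counting interval 8.53 to 127).

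Other genes of the transport system, from a list of 42 partners that carry no Slc name, rose in 18, fell in 11 and were not called in 6 of 35 tested, with a median log2 fold change of 0.33, beside 34.2% higher and 34.4% lower of all tested genes. The mitochondrial serine carrier Sfxn1 rose from 46.3, 44.5 and 49.1 CPM to 266, 247 and 255 CPM, log2 fold change 2.46 (SE 0.1, adjusted p = 1.31e-07 by edgeR). The outer membrane channel Vdac1 rose by 1.99 and the pyruvate carrier subunit Mpc2 by 1.21 on the log2 scale. Ucp2, an uncoupling protein of the Slc25 family by sequence, fell from 1110.5, 932 and 1019 CPM to 708, 715 and 622 CPM. Mfsd2a, which imports lysophosphatidylcholine, rose from 0.477, 4.15 and 0.549 CPM to 77.8, 49.9 and 73 CPM, log2 fold change 5.2 (SE 0.52, adjusted p = 5.14e-05 by edgeR), and the sodium pump subunit Atp1b3 rose by 1.29, while Atp1b1 fell by 2.09.

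The 20 members with the minimum in naive samples alone are mostly genes nearly absent after CpG. Slco2b1, an organic anion carrier, had 340, 109 and 134 reads before and 0, 0 and 0 reads after CpG, at least 79.5-fold lower against a floor of 3 reads per library. Slc16a9, a monocarboxylate family member, had 315, 150 and 179 reads before and 0, 0 and 0 reads after CpG, at least 88.3-fold lower. Slc45a3 was at least 64-fold, the cationic amino acid carrier Slc7a2 at least 30.5-fold and the dicarboxylate carrier Slc13a3 at least 10.7-fold lower, each without a read in any CpG sample. These 5 genes had 12 to 340 reads per naive sample.

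Of the others, Slc8a1, the plasma membrane sodium-calcium exchanger NCX1, had 180, 86 and 100 reads before and 0, 0 and 1 reads after CpG, a ratio of 451 with a 95% counting interval of 80.5 to 17869.95. Slc1a3, a glutamate carrier, had 125, 85 and 81 reads before and 0, 2 and 0 reads after CpG (ratio 179, 49.2 to 1488), and Slc7a8, a neutral amino acid exchanger, had 226, 93 and 88 reads before and 1, 0 and 2 reads after CpG (ratio 167, 56.8 to 814). Slc4a11 had 26, 27 and 17 reads before and 2, 0 and 0 reads after CpG (ratio 43.1, 11.5 to 363). The counting intervals cover counting error only. Slc11a1, the iron and manganese carrier NRAMP1 of phagosomes in macrophages, was at 84, 42.6 and 60.9 CPM in the naive samples. In the CpG samples it was at 1.23, 0.997 and 1.56 CPM, log2 fold change -5.6 (SE 0.34).

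The 3 naive samples differed in these genes and in the macrophage markers. All 14 macrophage markers were highest in naive replicate 1, and so were 12 of the 20 members (60%), a description only, since these genes met the minimum through the naive samples. Naive replicate 1 was also highest in 19 of the 36 members that rose with the minimum in both groups (52.8%). It was highest in 11 of the 42 that fell with that minimum (26.2%) and in 31.5% of all tested genes. Relative to the mean of the naive samples, the median member stood at 1.22, 0.82 and 0.85 in replicates 1, 2 and 3, the median macrophage marker at 1.43, 0.69 and 0.92, and the median tested gene at 1.00, 1.00 and 0.99. Slco2b1 stood at 1.70, 0.53 and 0.77, and Slc16a9 at 1.42, 0.65 and 0.93.

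Slc4a1 and Slc14a1 did not have that order. Slc4a1, the chloride-bicarbonate exchanger band 3 of red cells, was at 55.9, 80 and 136 CPM in the naive samples. In the CpG samples it was at 0.616, 1.2 and 2.15 CPM, log2 fold change -6.05 (SE 0.49). It was highest in naive replicate 3 like the erythroid marker sum. Slc14a1, a urea carrier also known from red cells, was at 44.4, 58.5 and 37.6 CPM in the naive samples, highest in naive replicate 2. In the CpG samples it was at 1.85, 3.39 and 1.37 CPM, log2 fold change -4.4 (SE 0.32). In the 42 members that fell and had the minimum in both groups, the median relative levels were 1.00, 1.06 and 0.95, and in the 36 that rose 1.08, 0.97 and 0.97. The part of macrophage or red cell RNA in the falls was not tested.

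**Figure D3:**
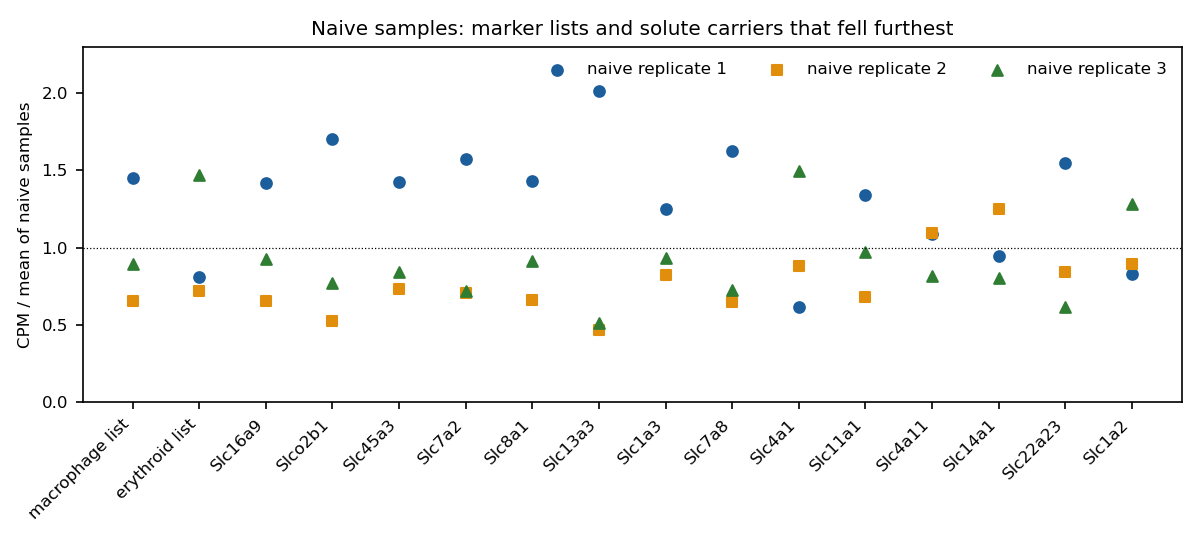
Level in each naive sample divided by the mean of the 3 naive samples, for the summed macrophage and erythroid marker lists and for the 14 members at the minimum in naive samples alone with log2 fold changes below -3. Naive replicate 1 is highest for the macrophage list and for 10 of these members, and replicate 3 for the erythroid list, Slc4a1 and Slc1a2.

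The response was measured on both alleles. In fits of each strain's table alone, 134 members were tested in both, 73 were called on the 129 allele and 85 on the Cast allele. The 65 called in both had the same direction in each case, and the median absolute difference between the alleles' log2 fold changes was 0.31. The shares of all genes in these fits are not given here, so the counts show nothing particular to the members. On the reads of the 129 allele alone the calls of Slc20a2 (adjusted p = 0.288), Slc30a9 (0.11) and Slc25a37 (0.051) were lost, on those of the Cast allele alone the calls of Slc16a7 (0.0983) and Slc4a1ap (0.0586), and on each alone that of Slc9a3r1 (0.391 and 0.131). The 6 further autosomal genes named in 1 table alone met the minimum there. Besides Slc25a4, the fits of those tables gave a rise of 1.45 for Slc35a4 and 0.49 for Slc25a40, log2 fold changes of -3.08 for Slc7a7 and -1.56 for Slc29a3, which fell, and no call for Slc25a51.

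The allele ratio, which the choice of genes did not use, was balanced over the class. The median Cast share of the 125 members was 52% ± 0.89 in naive and 52.4% ± 1.11 in CpG samples (SD, n = 3 each), a difference of 0.411 points (two-sided exact permutation p = 0.7, smallest possible 0.1). Within each number the CpG sample was the higher, at 51.2 and 51.3%, 52 and 52.6%, and 52.9 and 53.4%, with p = 0.25 in an exact sign-flip test, the smallest that 3 pairs allow. Over 8562 autosomal genes the medians were 51.7% ± 0.389 and 51.6% ± 0.378 (exact permutation p = 0.8). An allele difference over both groups was called in 45 of 157 members, 27 toward Cast and 18 toward 129, beside 34.9% of 10089 autosomal genes, 22.1% toward Cast and 12.8% toward 129. The members' shares were 28.7%, 17.2% and 11.5%.

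The strongest differences toward Cast were in Slc35e1, at 98.9, 96.5 and 98.6% in the naive and 98.6, 97.6 and 98.1% in the CpG samples, and Slc36a4, at 96.9, 95.5 and 95.6% in the naive and 93.2, 95.7 and 93.4% in the CpG samples. Slc39a10 was at 86.4, 82.1 and 85.3% in the naive and 84.3, 80.6 and 79.9% in the CpG samples, Slc35a3 at 76.6, 77.6 and 76.6% in the naive and 82.6, 84.3 and 81.2% in the CpG samples, and Slc30a7 at 69.4, 67.7 and 61.2% in the naive and 71, 69.8 and 65.7% in the CpG samples. In these genes all 6 samples leaned the same way. Toward 129, Slc25a3 was at 32.2, 30.8 and 30.4% in the naive and 25.6, 19.4 and 24.5% in the CpG samples, Slc16a6 at 34.9, 37.3 and 32.9% in the naive and 34.8, 34.5 and 33.3% in the CpG samples, Slc15a3 at 41.1, 24.1 and 35.2% in the naive and 47.3, 40.7 and 38.3% in the CpG samples, and Slc35b3 at 37.9, 39.9 and 42.7% in the naive and 47.3, 37.2 and 44.5% in the CpG samples. Of Slc20a1, which leaned toward Cast at 52.2, 53.7 and 60.6% in the naive and 59, 52.8 and 53% in the CpG samples and was called with an adjusted p of 0.0407 (edgeR), the call was lost without naive replicate 2 (0.0679) or 3 (0.0947), and without CpG replicate 1 (0.1104), 2 (0.0633) or 3 (0.0625).

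No member passed the test of a change of the allele ratio with CpG, edgeR's interaction term, which called 1.01% of 10089 autosomal genes. Of the 157 members, 16 had an unadjusted p under 0.05, and the smallest adjusted p was 0.0515. The share of all autosomal genes with such an unadjusted p is not given here, so the 16 are not read as an excess. With the number as a block, 9 members were called, beside 7.78% of all autosomal genes. The smallest p-values belonged to Slc29a1, Slc35c2 and Slc35c1. The Cast share of Slc29a1 was 76.8, 74.9 and 69% in the naive and 57.6, 53.5 and 56% in the CpG samples (log2 change of the ratio -1.15, adjusted p = 2.304e-05 with the block). For Slc35c2 it was 36.2, 41.1 and 42.4% in the naive and 57.1, 60.3 and 55.9% in the CpG samples (1.05, 9.02e-05 with the block), and for Slc35c1, the GDP-fucose carrier, 45.3, 34.7 and 41.4% in the naive and 59.1, 56.7 and 54.9% in the CpG samples (0.97 without and 8.61e-04 as the adjusted p with the block). The groups did not overlap in any of these, which is not a result, since the genes were picked for their small p-values. The reads of Slc29a1 from the 129 allele were 52, 50 and 54 naive and 188, 171 and 194 CpG. From the Cast allele they were 172, 149 and 120 naive and 255, 197 and 247 CpG. In these counts the 129 reads rose more, but the change of the ratio was not called without the block (edgeR adjusted p = 0.0515). The others called with the block were Slc25a3, Slc35a3, Slc37a2, Slc38a1, Slc39a14 and Slc41a1. The Cast share of Slc38a1 was 40.2, 50.3 and 50.1% in the naive and 50.2, 60 and 58.6% in the CpG samples, higher after CpG within each number while the groups overlapped.

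At 13 members the samples of 1 number stood apart. Slc4a7 was at 93.6, 93.2 and 51.5% in the naive and 93.7, 94.6 and 46.1% in the CpG samples, where number 3 alone was near balance. Slc25a37 was at 49.6, 76.3 and 49.1% in the naive and 54, 81.3 and 53% in the CpG samples, with number 2 apart. The genes were picked for the same number being apart in both groups, so that agreement is not a result. Slc45a4 was at 49.3, 88.5 and 84.1% in the naive and 50.9, 84.8 and 84.2% in the CpG samples, and Slc11a2 at 51.5, 80.1 and 77.8% in the naive and 49.4, 89.7 and 90.2% in the CpG samples, with number 1 apart in both. Others were Slc9a3r1, Slc16a10, Slc27a4, Slc30a4, Slc35a5 and Slc39a9.

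In Slc35d2 the number that stood apart also differed in the summed level. Its Cast share was 96.4, 45.9 and 97.1% in the naive and 91.8, 53.2 and 96.2% in the CpG samples. Its reads of the 129 allele were 5, 157 and 3 naive and 5, 44 and 2 CpG, and of the Cast allele 132, 133 and 101 naive and 56, 50 and 50 CpG. The Cast reads of number 2 were thus like those of numbers 1 and 3, and its higher summed level came with 129 reads that the others nearly lacked. With the number as a block its fall had an adjusted p of 9.50e-06 (edgeR). In Slc30a4, where number 1 stood apart with Cast shares of 82.7, 57.2 and 63.2% in the naive and 77, 56.6 and 52.8% in the CpG samples, number 1 also had the highest summed level in both groups, at 81.4, 57.6 and 69.4 CPM in the naive samples and 108, 79.6 and 84.7 CPM in the CpG samples, and the most Cast reads, 282, 143 and 160 naive and 405, 226 and 229 CpG.

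**Figure D4:**
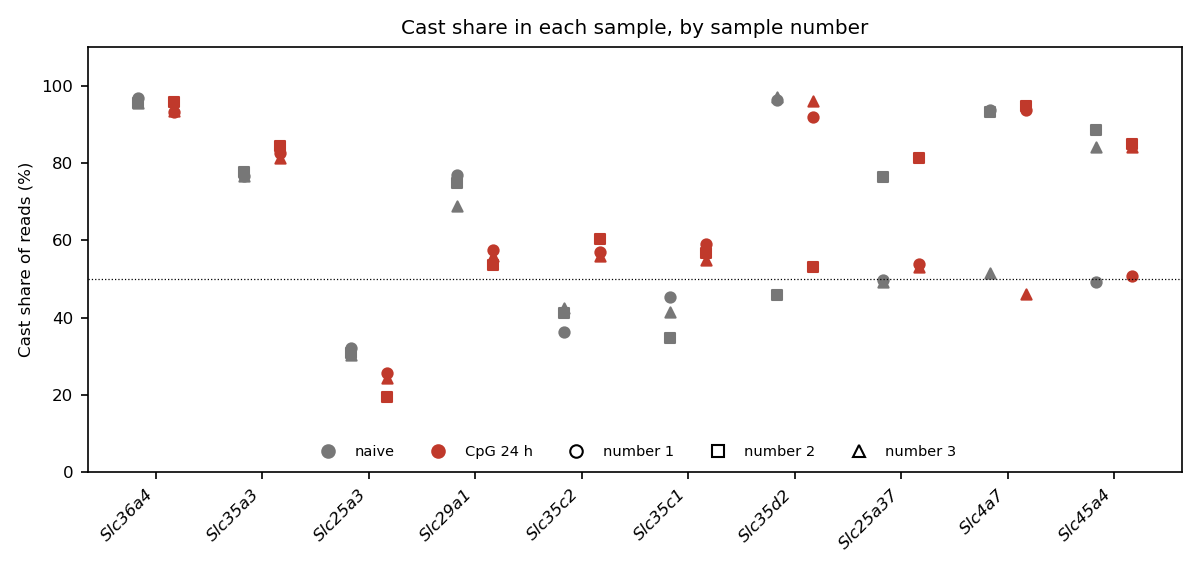
Cast share of the reads (percent, y axis) of 10 members in each naive (grey) and CpG (red) sample, with the marker shape giving the sample number and the dotted line marking 50%. Slc36a4 and Slc35a3 lean to Cast and Slc25a3 to 129 in every sample. Slc29a1, Slc35c2 and Slc35c1 were picked for the smallest p-values of a change with CpG and were not called without the block. The last 4 genes were picked because the samples of 1 number stand apart in both groups.

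Overlapping genes limit some of these values. By GENCODE names 25 of the 157 members overlap another protein-coding gene, 23 of them on the opposite strand. The library kit keeps the strand, but the setting used in counting is not given in the sources used here. Among the genes described these include Slc11a2, Slc15a3, Slc16a6, Slc19a1, Slc20a2, Slc25a11, Slc25a26, Slc25a46, Slc31a1, Slc39a6, Slc39a9, Slc39a11, Slc39a13, Slc48a1, Slc4a1ap, Slc4a2, Slc5a6 and Slc8a1, whose partner genes include Col18a1, Cdc26, Elp2, Cog1, Psmc3 and Hdac7. Slc35a3, which overlaps Gm43191, and Slc5a3 overlap a gene on the same strand, which no strand setting can separate.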

How the data were processed

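Total RNA was extracted with TRIzol and made into libraries with a stranded total RNA kit, per the labels' protocols. The authors deposited 12 tables of raw read counts per gene, a 129S1/SvImJ and a CAST/EiJ table for each of the 6 samples. STAR, featureCounts of Subread 2.0.0 and mm10 are named per the submitters' processing notes, without saying for which files. How a read was given to a strain is not given in the sources used here. Summary rows were left out; the row for reads in no gene held 44.5% to 67.1% of aligned reads. Genes were matched between the tables by name and chromosome, which kept 77.8% to 87.2% of gene reads, and 129 and Cast reads were summed. edgeR 4.0.16 (R 4.3.3; TMM, robust quasi-likelihood test, filterByExpr, Benjamini-Hochberg adjustment over all 10343 tested genes) compared the groups. Alternatives were DESeq2 1.42.0, RLE scaling, no filter, a replicate block, each strain's tables alone and leaving out each sample. Allele tests used a term per sample and all 10089 autosomal genes with at least 10 reads in at least 3 samples. The scripts were tested on simulated data.

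Replicate numbers are from the titles, and the labels do not say whether same-numbered samples share an animal. Deviations from the group means correlated at 0.182, 0.155 and 0.206 between same-numbered samples and negatively in every other pairing. The negative values go with the positive ones, because deviations cancel out within a group. No 2 libraries agreed within sampling noise (chi-square per degree of freedom 4.62 to 14.7). The members and gene lists were chosen with earlier results of these data known. Named genes were, per solute group, up to 3 called members with the largest rise and 3 with the largest fall (at least 50 reads on average, no overlap of the groups), the extremes of the allele tests, the 5 with most reads (Slc38a1, Slc25a3, Slc25a37, Slc38a10 and Slc35a3) and those at the read minimum; others were named after their values were seen. A further deposited table of X-linked genes was not used here. A few genes covered by these rules are not reported here.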

Additional observations from a re-analysis of the deposited data

How the results depend on the processing

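Among the alternatives without a fold limit, the fewest members were called between the groups in the 129 tables alone. Over all members, between 75 and 112 were called under the alternatives (108 as reported), and 101 to 109 when 1 sample was left out. In the 129 tables alone 30 members were called higher in place of 46. Of the 125 members at the minimum in both groups, 59 to 82 were called under the alternatives without a fold limit (78 as reported), and 74 to 81 with 1 sample left out. A minimum log2 fold change of 1 left 46, of which 23 were higher and 23 lower. RLE scaling moved the median of all genes by -0.025 on the log2 scale. The change of the allele ratio was called in 0 members, in 2 with no filter on low counts, in 9 with the replicate block, and in 0 whichever sample was left out. The allele difference was called in 33 to 45 members with 1 sample left out. The difference in median Cast share ranged from -0.091 to 1.01 points with 1 sample left out and had p = 0.25 in an exact sign-flip test over the replicate pairs, added after the data were seen and the smallest that 3 pairs allow. Of 67 results on named genes, none changed direction in any alternative, with 24 calls lost and 5 gained over all alternatives. In the other 724 instances the side of the threshold was the same, allele changes that were never called included. The minimum of 10 reads over both alleles leaves few reads per allele, so allele shares of the lowest members are imprecise.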
